A study of Mus musculus with 17 samples.

Results

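Solute carriers are the membrane proteins that move sugars, amino acids, ions, metals, nucleotides and vitamins across the cell surface and the membranes of organelles, and their genes are numbered by subfamily (the number after Slc). Members were the genes whose symbol has the form Slc, number, letter, number and that had at least 10 counts in each of the 17 libraries. This gave 208 genes in 43 subfamilies, out of 370 symbols of that form and 25899 symbols in all. In growing cells, RAF and ERK signalling is known to raise nutrient uptake, above all of glucose through GLUT1, and embryonic stem cells rely heavily on glycolysis and on amino acid import. Carriers work in several ways: some couple a substrate to sodium or protons, some exchange one solute for another, and some need a partner subunit to reach the membrane.

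All RNA was from E14tg2a, a cell line derived from the early mouse embryo (129SV background). In every library the cells lacked both Erk genes and carried a cDNA for FLAG-ERK2 Q103A, whose widened ATP pocket admits PP1-type inhibitors, and a cRAF-ErT2 cassette, through which 4-hydroxytamoxifen (4OHT) switches on RAF. All had spent 24 h in serum medium with LIF and 250 nM of the FGF receptor inhibitor PD173074, after growth in 2 µM Chir99021, a GSK3 inhibitor. The groups were 250 nM 4OHT for 2 h, MEK inhibitor (MEKi, 1 µM) with 4OHT, PP1 (2 µM) with 4OHT, MEKi, and PP1, each from clones a, b and c, and DMSO from clones b and c. Ethynyl uridine at 5 mM was added for the last 15 minutes, and the RNA that had taken it up, called new RNA here, was captured and sequenced. All clones belong to 1 cell line, so p-values measure the spread between clones. No cells without the cassette received 4OHT, so that an effect of 4OHT itself and of the RAF kinase cannot be told apart, and how long the inhibitors were given alone is not stated clearly. Values are TMM-scaled CPM (counts relative to the library total, rescaled between libraries), given in the order of the clones. Each log2 fold change stands with an approximate standard error after the ± sign, and a gene was called at an adjusted p under 0.05 in edgeR.

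Libraries held between 5239690 and 11093390 counts, of which the members took 0.809% to 1.45%. All 8 embryonic stem cell markers were above 1 CPM, with a summed level of 2786 to 3703 CPM, while the 6 fibroblast or feeder markers summed to 0.926 to 3.66 CPM. A group of 14 loci of very high count took 9.38% of the counts in the 4OHT library of clone a and 42.0% in the PP1 library of clone a. A background level was taken from the low end of counts per megabase over all long genes, relative to library totals. It was highest in the MEKi library of clone a (11.2 CPM per megabase) and the MEKi with 4OHT library of clone b (8.43). The ERK target Spry4 changed by log2 4.35 with 4OHT alone, by 4.07 with 4OHT under PP1 and by -3.44 with 4OHT under MEKi. The difference between the responses with and without PP1 was -0.28 ± 0.13 and did not pass the test (adjusted p = 0.12), and PP1 without 4OHT lowered Spry4 by -1.30. In bulk RNA, fewer cells of a type and less RNA per cell cannot be told apart. Of the stem cell markers, 1 was called higher and 4 lower in 4OHT than in DMSO, with sums of 2939 to 3243 CPM in 4OHT and 3237 to 3502 CPM in DMSO, and 6 primitive endoderm markers summed to 9.25 to 14.6 CPM in 4OHT and 17.1 to 17.5 CPM in DMSO. The part of these differences in the results was not tested.

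The count rule shapes the set. Slc8a1, Slc22a15, Slc2a13 and Slc22a18 were just inside it, with a lowest library at 10 counts, and Slc5a1, Slc6a7, Slc30a2, Slc24a2, Slc50a1, Slc18a1 and Slc41a3 were just outside it, with a lowest library at 9. A gene that fell to few counts in a single group was thereby left out. Of the 162 symbols outside the rule, 93 could still be tested, and 3 of these were called higher and 16 lower in 4OHT than in DMSO. The falls included the magnesium transporter gene Slc41a3 (log2 fold change -2.52), the zinc exporter gene Slc30a2 (-2.69), the glucose carrier gene Slc2a2 (-3.13) and Slc40a1 (-1.51), which encodes the iron exporter ferroportin. Slc7a5, the main partner of Slc3a2, had a total of 0 counts in the table and could not be measured. Among the members, Slc9a3r1, Slc9a3r2, Slc4a1ap and Slc7a6os carry the name of a carrier but encode adaptors or other proteins. For 26 members, exons share bases with those of another gene, and since the strand setting of the counting is not given in the sources used here, reads of such pairs cannot be told apart. They include Slc7a7, Slc16a6, Slc1a1, Slc4a2, Slc20a1, Slc26a10, Slc4a1ap and Slc8a1.

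Treatment with 4OHT for 2 h split the members evenly. New RNA of 58 members was higher in 4OHT than in DMSO and that of 55 was lower, with 95 not called. Over all 14907 genes tested, 25.7% were called higher and 26.3% lower, close to the members' 27.9% and 26.4%, and the median log2 fold change was 0.01 over the members and -0.03 over all genes. At least 2-fold changes were called higher for 20 members and lower for 18, where 6.39% and 12% of all genes were. Scaling by library totals alone moved the median of all genes to -0.32 and gave 28 members higher and 72 lower. The even split is thus relative to TMM scaling, and also to the count rule. That rule is stricter than the filter for all genes, and the tested symbols it left out had 3 higher and 16 lower. Without a fold minimum, the members' share of calls lay near that of all genes. At 2-fold, falls outnumbered rises over all genes but not among the members.

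**Figure D1:**
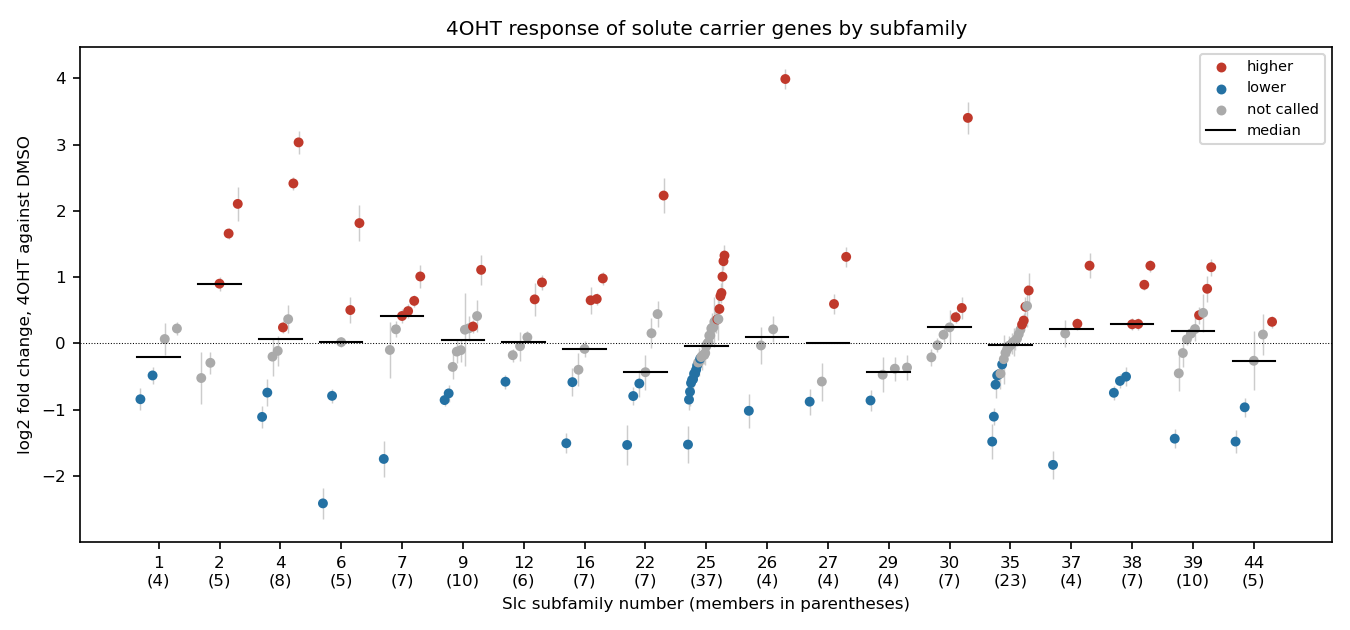
Log2 fold change of 4OHT against DMSO (vertical axis, bars: standard error) for every member of the subfamilies with at least 4 members (horizontal axis, number of members in parentheses). Red points were called higher, blue lower and grey not called, and the black line is the median. Subfamily 2 (GLUT sugar carriers) has 3 genes higher and none lower (3 and 1 with library totals), subfamily 30 (zinc exporters) 3 higher and none lower (1 and 1 with library totals), while subfamily 29 (nucleoside carriers) has none higher. Genes outside the count rule, among them Slc2a2 and Slc30a2, both called lower, are not shown.

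Ion carriers had 10 higher and 7 lower of 37 (6 and 9 with library totals), where 25.7% and 26.3% of all genes were called. They held the largest rise of all members. Slc26a2, which encodes a sulphate importer that supplies cartilage matrix synthesis, had 552, 544 and 726 CPM in 4OHT clones, against 37.5 and 38.9 CPM in DMSO clones. That is 15.9-fold, with no overlap of the groups (log2 fold change 3.99 ± 0.14, adjusted p = 4.4e-15). Slc4a7 encodes an electroneutral sodium bicarbonate cotransporter that brings bicarbonate into the cell, and it had 730.2, 630.0 and 707 CPM in 4OHT clones, against 127 and 132 CPM in DMSO clones (2.42 ± 0.10, adjusted p = 1.5e-15). Slc4a11, of the same subfamily and best known from the corneal endothelium, had 67.5, 71.8 and 54.3 CPM in 4OHT clones and 8.96 and 6.66 CPM in DMSO clones (3.04 ± 0.17, adjusted p = 8.8e-13). Of the 8 members of subfamily 4, 3 were called higher and 2 lower. The third rise was Slc4a1ap (0.24), which is no carrier gene, and the falls were Slc4a8 and Slc4a5 (-1.11 and -0.74). Of the 4 members of subfamily 26 Slc26a10 was called lower (-1.02).

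Of the 5 members that are sugar carrier genes of the GLUT type, 3 rose and none was called lower (3 higher and 1 lower with library totals). The count rule left out Slc2a2, which was called lower (mean 0.241 CPM in 4OHT and 2.25 CPM in DMSO). Slc2a1 (chr4:119108711-119137983, mm10), encoding GLUT1, the main glucose importer of dividing cells, had 1326, 1373 and 1467 CPM in 4OHT clones, against 437 and 443 CPM in DMSO clones, a 3.16-fold difference (1.66 ± 0.08, adjusted p = 4.1e-14). Slc2a3, encoding the high-affinity carrier GLUT3, had 1265, 1510.0 and 1380.0 CPM in 4OHT clones, against 696 and 788 CPM in DMSO clones (0.90 ± 0.10, adjusted p = 1.3e-07). The groups did not overlap for either gene. Slc2a9, which encodes a urate carrier, had 17.1, 10.8 and 13 CPM in 4OHT clones and 2.71 and 3.7 CPM in DMSO clones (2.11 ± 0.26, adjusted p = 3.6e-07). Slc2a8, for sugar transport inside the cell, and Slc2a13, for myo-inositol, were not called (-0.29 ± 0.17 and -0.52 ± 0.39). Slc2a3 lies 13176 bp from Nanog, the pluripotency factor gene, on the opposite strand, and Nanog fell by 1.15 on the log2 scale in the same comparison.

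Both lactate carrier genes among the members were called higher. The count rule left out Slc16a7, of the same subfamily, with a mean of 0.915 CPM in 4OHT and 1.97 CPM in DMSO at few counts. Slc16a1 and Slc16a3, whose products MCT1 and MCT4 carry lactate and pyruvate with protons, had log2 fold changes of 0.67 ± 0.09 and 0.98 ± 0.10 (adjusted p = 1.4e-06 and 1.9e-08). Slc16a3 had 175, 219 and 223 CPM in 4OHT clones, against 95.2 and 113 CPM in DMSO clones, and the Slc16a1 call was lost when libraries were scaled by their totals (adjusted p = 0.066). The subfamily of 7 had 3 higher and 2 lower (1 and 3 with library totals), the others being Slc16a10, higher (0.65), and Slc16a6 and Slc16a9, lower (-1.51 and -0.59). Slc16a6 shares 1052 exonic bases with Amz2, which was lower too (-0.78), so its value is uncertain. In a list of 20 glycolytic genes, 11 were called higher and 3 lower, with a median log2 fold change of 0.52. Over all genes, 25.7% were called higher and 26.3% lower, and the list was not recounted with library totals. Pfkp, the platelet-type phosphofructokinase gene, changed by 1.06, Pgk1 by 0.86 and Hk2 by 0.79, while Pfkm was lower (-0.51). Larger falls were those of Ldhb (mean 54.6 CPM in 4OHT and 143.6 CPM in DMSO) and Hk1 (20.3 and 43.8 CPM).

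Of 30 amino acid carriers, 10 were higher and 10 lower (4 and 12 with library totals), where 25.7% and 26.3% of all genes were called. Sodium-coupled neutral amino acid carriers of subfamily 38 were all called, 4 higher and 3 lower of 7 (2 and 3 with library totals). Slc38a2, encoding SNAT2, had 736, 803 and 812 CPM in 4OHT clones, against 324 and 371 CPM in DMSO clones (1.17 ± 0.09, adjusted p = 1.8e-10), and Slc38a1, encoding SNAT1, had 422, 443 and 434 CPM in 4OHT clones, against 228 and 240.5 CPM in DMSO clones (0.89 ± 0.07, adjusted p = 8.2e-10). Both lie beside each other on mouse chromosome 15, 44479 bp apart on the same strand, and the next tested gene beyond Slc38a2 is Slc38a4 (0.29, adjusted p = 0.008), singled out after its value was seen. The lower members were Slc38a6 (-0.75), Slc38a7 (-0.57) and the lysosomal arginine sensor gene Slc38a9 (-0.50).

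Cationic amino acid carriers of subfamily 7 split by gene. Slc7a1 and Slc7a3, encoding the CAT carriers that import arginine and lysine, were higher (0.49 ± 0.10, adjusted p = 0.00027, and 1.01 ± 0.17, adjusted p = 7.5e-05), although Slc7a1 lost its call with library totals (adjusted p = 0.47). Slc7a2, of the same type, had 2.18, 2.07 and 1.87 CPM in 4OHT clones, against 5.34 and 8.51 CPM in DMSO clones (-1.75 ± 0.27, adjusted p = 6.7e-06). Slc3a2, the heavy chain that carries light chains of this subfamily to the membrane, had 158, 169 and 188 CPM in 4OHT clones and 173 and 191 CPM in DMSO clones and was not called (-0.09 ± 0.09). The cystine exchanger gene Slc7a11 and the neutral amino acid carrier gene Slc1a4 were not called either (-0.10 ± 0.42 and 0.07 ± 0.23). The glutamine carrier gene Slc1a5 missed the threshold (0.22 ± 0.10, adjusted p = 0.078). It passed with clone as a replicate block (0.24, adjusted p = 0.044), without the 4OHT library of clone a (0.36, adjusted p = 0.0038), without the DMSO library of clone c (0.33, adjusted p = 0.049) and under 2 other settings (adjusted p = 0.046 and 0.047). The neurotransmitter-type carriers of subfamily 6 had 2 higher and 2 lower of 5 (1 and 2 with library totals). Slc6a12, for betaine and GABA, was higher (1.82 ± 0.27, adjusted p = 4.9e-06), as was the creatine carrier gene Slc6a8 (0.50, adjusted p = 0.045), while the neutral amino acid carrier gene Slc6a15 was lower (-0.79, adjusted p = 1.4e-06). Slc6a8 and Slc6a15 were chosen after their values were seen.

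**Figure D2:**
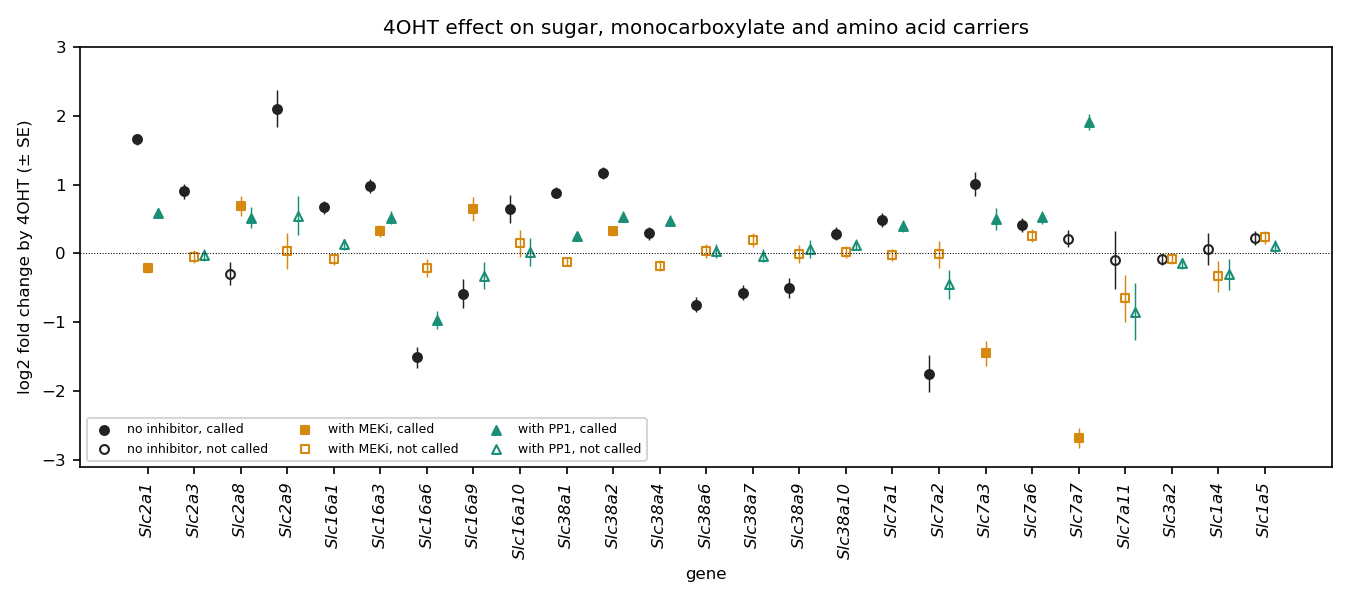
Log2 fold change by 4OHT (vertical axis, bars: standard error) of 25 sugar, monocarboxylate and amino acid carrier genes (horizontal axis), without inhibitor (black circles), under MEKi (orange squares) and under PP1 (green triangles); filled symbols were called. Slc2a1 lies at 1.66 without inhibitor, -0.21 under MEKi and 0.59 under PP1, while Slc7a7 lies at 0.21 without inhibitor and at -2.68 under MEKi and 1.91 under PP1.

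Of 22 metal carriers among the members, 8 were higher and 1 lower (4 and 2 with library totals), against 25.7% and 26.3% of all genes. This balance depends on the count rule, which left out Slc30a2, Slc41a3 and Slc40a1, all called lower. The largest rise among them was Slc30a3 (chr5:31086106-31108237), encoding the transporter that loads zinc into synaptic vesicles, with 66, 55.3 and 57.1 CPM in 4OHT clones, against 4.11 and 7.22 CPM in DMSO clones (3.40 ± 0.24, adjusted p = 1.8e-10). The zinc importer genes Slc39a14 and Slc39a1 were higher (1.15 ± 0.13, adjusted p = 2.1e-07, and 0.82 ± 0.20, adjusted p = 0.0012). The copper carrier gene Slc31a2 was higher (0.86) and was singled out after its value was seen, while Slc31a1, encoding the main copper importer, was at -0.01 ± 0.16. The single fall among the members was Slc39a11, an intracellular zinc carrier gene (-1.44 ± 0.15, adjusted p = 7e-08). The surface zinc exporter gene Slc30a1 was called higher (0.53 ± 0.17, adjusted p = 0.0089) but not without the 4OHT library of clone b (adjusted p = 0.058) or the DMSO library of clone b (0.061). Slc30a6, an exporter of the secretory pathway, was the lowest of its subfamily and not called (-0.21 ± 0.13).

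Mitochondrial carriers, the largest subfamily with 37 members, had 7 higher and 11 lower (4 and 16 with library totals), against 25.7% and 26.3% of all genes. The highest was Slc25a47, a carrier gene known from liver, with 35.6, 29.6 and 41.1 CPM in 4OHT clones, against 14.8 and 13.6 CPM in DMSO clones (1.33 ± 0.15, adjusted p = 1.5e-07). Its neighbour Slc25a29, which encodes a carrier of basic amino acids, begins 163 bp away on the opposite strand of chromosome 12 and was also higher (1.01 ± 0.19, adjusted p = 7.2e-05). Slc25a33, for pyrimidine nucleotides, was higher (1.24, adjusted p = 7.2e-08), as was the aspartate and glutamate carrier gene Slc25a13 (0.71, adjusted p = 7.8e-08), while its paralogue Slc25a12 was lower (-0.46, adjusted p = 6.9e-05). Slc25a43 was the lowest (-1.53 ± 0.28, adjusted p = 7.8e-05), and Slc25a20, for carnitine esters of fatty acids, was lower (-0.85, adjusted p = 8e-05). Slc25a29, Slc25a33, Slc25a13, Slc25a12 and Slc25a20 were chosen after their values were seen. Slc25a5, an ADP and ATP carrier gene with many processed copies in mammalian genomes, was not called (0.33 ± 0.37), and reads of such copies may be split or misplaced.

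Carriers of other substrates gave single large changes. The peptide carrier gene Slc15a1 had 97.7, 97 and 112 CPM in 4OHT clones, against 29.1 and 37 CPM in DMSO clones (1.63 ± 0.13, adjusted p = 3.4e-10). Slc22a15, for organic cations and zwitterions, had 14.6, 11.2 and 15.1 CPM in 4OHT clones and 3.04 and 2.78 CPM in DMSO clones (2.23 ± 0.27, adjusted p = 1.8e-07), and the lysosomal carrier gene Slc46a3 was higher (1.61 ± 0.16, adjusted p = 1.4e-08). Slc24a3, a sodium, calcium and potassium exchanger gene, was higher too (1.79 ± 0.32, adjusted p = 4.6e-05). Fatty acid carriers diverged, with Slc27a1 at 1.31 and Slc27a2 at -0.88, both called. Slc37a4, which carries glucose 6-phosphate into the endoplasmic reticulum, was higher (1.17, adjusted p = 1.2e-05). None of the 5 nucleoside carriers was called higher, and 2 were called lower with TMM scaling. All 5 were lower with library totals, which moved the median of all genes to -0.32 and gave 28 members higher and 72 lower. With TMM scaling, Slc28a1 and Slc29a3 were lower (-0.88 and -0.86) and Slc29a1, encoding the main equilibrative carrier ENT1, was not called (-0.36 ± 0.19), although it was without the 3 libraries of largest high-count share (-0.51, adjusted p = 0.032). Nucleotide sugar carriers of the Golgi and endoplasmic reticulum had 4 higher and 6 lower of 23 (0 and 7 with library totals). Over all genes, 25.7% were called higher and 26.3% lower. Log2 fold changes of the nucleotide sugar carriers lay between -1.48 for Slc35f4 and 0.80 for Slc35f1. The Slc35f1 call was lost without the 4OHT library of clone a (adjusted p = 0.051) and without either DMSO library (0.064 without clone b and 0.061 without clone c).

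Among ion and vitamin carriers that are well known from other cells, the chloride cotransporter gene Slc12a2 and the phosphate importer gene Slc20a1 were not called (0.09 ± 0.09 and 0.12 ± 0.11). The folate carrier gene Slc19a1 was higher (0.53 ± 0.12, adjusted p = 0.00079) but not with library totals (adjusted p = 0.35). The potassium and chloride cotransporter genes Slc12a4 and Slc12a7 went opposite ways (0.92 and -0.58, adjusted p = 5.4e-07 and 5.3e-05). The choline carrier-like gene Slc44a1 was called higher (0.33, adjusted p = 0.003), but was at 0.04 with library totals (adjusted p = 0.9).

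The deepest fall was that of Slc5a11, a sodium-coupled myo-inositol carrier gene, with 3.77, 4.3 and 1.52 CPM in 4OHT clones, against 26.6 and 20.4 CPM in DMSO clones, 7.5-fold lower (-2.91 ± 0.38, adjusted p = 1.3e-05). Slc52a3, for riboflavin, had 1.39, 2.41 and 1.64 CPM in 4OHT clones and 7.89 and 8.33 CPM in DMSO clones (-2.21 ± 0.27, adjusted p = 3e-07). Slc47a1, for export of organic cations and drugs, was lower (-1.90 ± 0.32, adjusted p = 2e-05), and so was Slc37a2, a sugar-phosphate exchanger gene of the endoplasmic reticulum (-1.84 ± 0.21, adjusted p = 1.3e-07). Slc22a18, an organic cation carrier-like gene, and the choline carrier-like gene Slc44a3 also fell (-1.53, adjusted p = 0.00015, and -1.48, adjusted p = 2e-07). None of the 4OHT libraries of Slc5a11, Slc52a3, Slc47a1 or Slc37a2 reached the lowest DMSO library. In these libraries several of the lower genes had few counts, which widens their errors.

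Promoters are shown for 4 members whose windows hold one of the motifs searched, chosen after their values were seen: a pair of large rises (Slc30a3 and Slc2a9), a fall (Slc9a8) and the gene of opposite inhibitor responses described further on (Slc7a7). Sequences are RefSeq's, build GRCm38.p6, of 300 bases from 250 before to 50 after a start site, written 5′ to 3′ along the gene's strand, with motif letters in capitals. The Slc30a3 window (chr5:31108195-31108494, minus strand) holds an ETS core (CCGGAA), the Slc2a9 window (chr5:38483336-38483635, minus strand) an AP-1 site (TGACTCA), the Slc9a8 window (chr2:167421460-167421759, plus strand) 3 ETS cores, and the Slc7a7 window (chr14:54417895-54418194, minus strand) a CEBP and ATF4 type motif (TGATGCAA).
Slc30a3: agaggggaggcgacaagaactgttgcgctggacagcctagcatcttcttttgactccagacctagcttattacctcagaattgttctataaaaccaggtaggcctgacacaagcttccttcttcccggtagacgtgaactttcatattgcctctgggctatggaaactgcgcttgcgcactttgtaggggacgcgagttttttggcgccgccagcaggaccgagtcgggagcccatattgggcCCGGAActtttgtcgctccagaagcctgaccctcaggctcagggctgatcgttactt
Slc2a9: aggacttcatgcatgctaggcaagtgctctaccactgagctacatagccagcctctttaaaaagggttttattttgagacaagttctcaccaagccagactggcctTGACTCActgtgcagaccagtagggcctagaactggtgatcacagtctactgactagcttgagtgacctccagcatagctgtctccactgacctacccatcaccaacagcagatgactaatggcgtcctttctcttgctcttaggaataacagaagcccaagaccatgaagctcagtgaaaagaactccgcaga
Slc9a8: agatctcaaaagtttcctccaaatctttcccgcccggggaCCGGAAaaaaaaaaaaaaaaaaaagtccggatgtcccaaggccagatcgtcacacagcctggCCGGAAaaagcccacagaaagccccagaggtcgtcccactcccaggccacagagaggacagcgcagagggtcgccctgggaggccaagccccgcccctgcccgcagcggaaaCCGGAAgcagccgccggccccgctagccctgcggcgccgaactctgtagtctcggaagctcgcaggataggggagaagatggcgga
Slc7a7: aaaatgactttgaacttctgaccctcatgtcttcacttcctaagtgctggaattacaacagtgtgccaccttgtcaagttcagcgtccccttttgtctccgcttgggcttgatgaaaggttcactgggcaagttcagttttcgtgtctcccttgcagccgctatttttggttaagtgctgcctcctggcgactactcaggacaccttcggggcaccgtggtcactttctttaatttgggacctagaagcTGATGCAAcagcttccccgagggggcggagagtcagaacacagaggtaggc
The first base of the motif lies 7 bases before the start in Slc30a3, 144 before it in Slc2a9, 210, 148 and 36 before it in Slc9a8, and at the last base before it in Slc7a7, whose letters recur in a second, overlapping window. The second RefSeq window of Slc30a3 (chr5:31093478-31093777) and the windows of Slc4a7, Slc22a15, Slc2a1 and Slc5a11 hold none of the motifs searched, which says only that these letters are not there. Slc9a8, a sodium and proton exchanger gene of the Golgi, was lower in 4OHT (-0.86 ± 0.09, adjusted p = 5.6e-08), which is not among the largest falls.

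Windows were found for 165 members (224 promoters). On either strand, ETS core letters stood in 56 of the members' 224 windows and in 14.9% of all 32851 windows, and among members in 17.4% of those of genes called higher and 36.5% of those called lower in 4OHT. The E-box CACGTG was in 11.2% of members' windows against 7.15% of all, and in 11.6% of those called higher and 19.2% of those called lower. AP-1 letters were in 5.8% of windows of members called higher, 1.92% of those called lower and 5.2% of all windows. The letters of CRE (TGACGTCA) were in 1.79% of members' windows and 1.79% of all, those of the EGR core (GCGTGGGCG) in 3.57% and 0.612%, those of the CEBP and ATF4 type motif in 1.79% and 0.895%, and the CArG box in 0.893% and 1.63%. None of these motifs contains another. These are counts of letters, given with no test, and a gene can have several windows. All windows include those of genes not tested here, while members had counts in every library, so the 2 sets are not matched for expression.

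With MEK blocked, 45 members were called. In MEKi with 4OHT, 20 members were higher and 25 lower than in MEKi, which makes 9.62% and 12% of the members, against 7.65% and 7.03% of all genes. The split was 17 higher and 7 lower with library totals, which moved the median of all genes to 0.17. Without the 2 libraries of highest background, 10 were higher and 12 lower. Of the 58 members that 4OHT raised on its own, 4 were called higher and 9 lower under MEKi, with a median log2 fold change of 0.01, against 0.78 without inhibitor. These 58 were chosen by their call without inhibitor, which by itself tends to make the median there larger. The same count was not made over all genes. Slc2a1 was among the 9 called lower under MEKi (-0.21 ± 0.07, adjusted p = 0.039), at -0.04 with library totals (adjusted p = 0.91). Slc26a2 had 30.6, 34.4 and 33.7 CPM in MEKi with 4OHT clones, against 27.1, 32.5 and 35.7 CPM in MEKi clones, and Slc30a3 had 4.55, 5.49 and 4.31 CPM in MEKi with 4OHT clones, against 6.81, 2.29 and 6.2 CPM in MEKi clones. These groups overlapped, and neither gene was called (0.05 ± 0.13 and -0.15 ± 0.27). The largest rises were modest: the mitochondrial coenzyme A carrier gene Slc25a42 (0.77 ± 0.14, adjusted p = 0.00053), the fatty acid carrier gene Slc27a4 (0.76, adjusted p = 0.001), the glutamate carrier gene Slc1a1 (0.71, adjusted p = 0.00092) and the anion exchanger gene Slc4a2 (0.69, adjusted p = 0.019). Slc4a2 was not called without the MEKi library of clone a (adjusted p = 0.089) or the MEKi with 4OHT library of clone c (0.12).

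Under PP1, 4OHT raised more members than it lowered. In PP1 with 4OHT, 61 members were called higher and 21 lower than in PP1, against 18.4% and 12.8% of all genes, which makes 29.3% and 10.1% of the members. With library totals the split was 53 higher and 7 lower, at a median of all genes of 0.12. Primitive endoderm markers summed to 9.51 to 13.9 CPM in PP1 with 4OHT and 18.1 to 21.9 CPM in PP1, and 5 trophoblast markers to 18.95 to 24.2 CPM in PP1 with 4OHT and 33.4 to 39.2 CPM in PP1. Their part in the results was not tested. Counting every tested symbol of the Slc form in place of members alone, 32 were lower. Of the 58 members raised by 4OHT alone, 37 were called higher and 1 lower under PP1, with a median of 0.43 against 0.78 without inhibitor. Of the 55 lowered by 4OHT alone, 2 were higher and 18 lower (median -0.18 against -0.80). Both sets were chosen by their call without inhibitor, which by itself tends to make the medians there larger in size. The same counts were not made over all genes. Among the 95 not called with 4OHT alone, 22 were higher and 2 lower under PP1. Across the 208 members, the log2 fold changes by 4OHT with and without PP1 had a Pearson's r of 0.585 and a Spearman's rho of 0.569, and those with and without MEKi of -0.032 and -0.037. Over all 14907 genes the values were 0.473 and 0.506 for PP1 and 0.029 and 0.085 for MEKi. The points share libraries and depth within a comparison, and genes are not independent replicates.

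**Figure D3:**
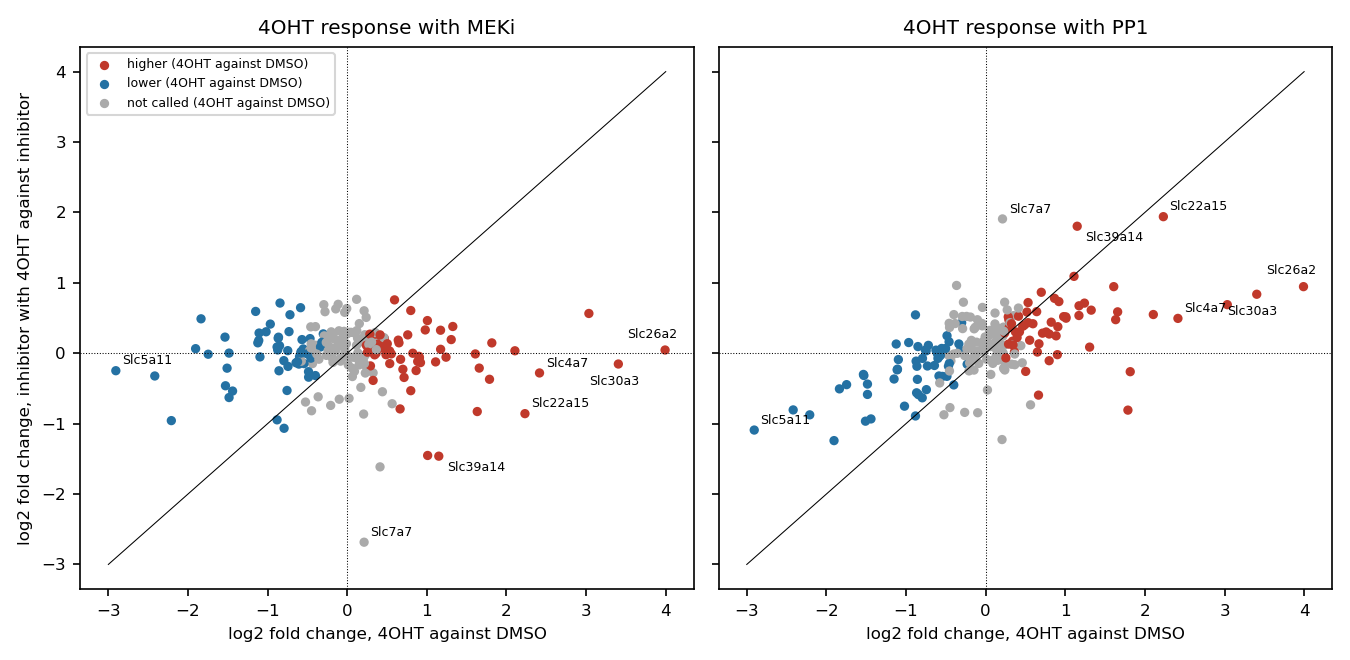
Log2 fold change by 4OHT under MEKi (left) and under PP1 (right, vertical axes) against that by 4OHT without inhibitor (horizontal axes) for the 208 members, coloured by their call without inhibitor; the diagonal marks equal values. Under MEKi the red points lie around 0, while under PP1 most lie above 0 and below the diagonal.

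The size kept under PP1 differed between carriers. Slc2a1 had 757, 702 and 698 CPM in PP1 with 4OHT clones, against 448, 498 and 488 CPM in PP1 clones (0.59 ± 0.07, adjusted p = 1e-06), and this response minus that without inhibitor was -1.07 ± 0.10 on the log2 scale. Slc26a2 had 58.3, 59.1 and 71.2 CPM in PP1 with 4OHT clones, against 32.9, 28.9 and 36.1 CPM in PP1 clones (0.95 ± 0.13, adjusted p = 1.1e-05), and Slc4a7 had 172, 169 and 158 CPM in PP1 with 4OHT clones, against 99.97, 123 and 129 CPM in PP1 clones (0.49 ± 0.08, adjusted p = 8e-05). All 3 genes were higher in each clone. The glucose carrier gene Slc2a3 had no call under either inhibitor (-0.04 ± 0.09 under MEKi and -0.02 ± 0.09 under PP1). Slc22a15 had 12, 6.7 and 8.6 CPM in PP1 with 4OHT clones, against 2.55, 2.09 and 2.57 CPM in PP1 clones (1.94 ± 0.26, adjusted p = 7.6e-06), and its difference from the uninhibited response did not pass the test (-0.29 ± 0.38). The same held for the scaffold gene Slc9a3r1 (1.09 ± 0.21, adjusted p = 0.00067, with a difference of -0.02 ± 0.31). The lowest values under PP1 were Slc47a1 (-1.24, adjusted p = 0.001), Slc5a11 (-1.09, adjusted p = 0.011), Slc16a6 (-0.96, adjusted p = 1.3e-05) and Slc39a11 (-0.93, adjusted p = 2.9e-05), and that of Slc5a11 lost its call without the 3 libraries of largest high-count share (adjusted p = 0.051). Mitochondrial carriers had 14 higher and 3 lower of 37 under PP1 (13 and 0 with library totals). Metal carriers had 7 higher and 1 lower of 22 (7 and 1 with library totals). Over all genes, 18.4% were higher and 12.8% lower. These balances also depend on the count rule, since the tested symbols it left out had 0 higher and 11 lower under PP1. The other classes are not listed here.

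A few carriers responded to 4OHT in opposite directions under the 2 inhibitors. Slc7a7 (chr14:54369442-54417780) encodes y+LAT1, a light chain that exchanges cationic for neutral amino acids and pairs with Slc3a2. It had 137, 135 and 107 CPM in PP1 with 4OHT clones, against 33.9, 33.9 and 33.4 CPM in PP1 clones (1.91 ± 0.11, adjusted p = 2.4e-11). In MEKi with 4OHT clones it had 5.88, 6.48 and 5.19 CPM, against 40.9, 36.8 and 35.5 CPM in MEKi clones (-2.68 ± 0.14, adjusted p = 8.4e-12). Without inhibitor it had 56.3, 46.7 and 47.3 CPM in 4OHT clones and 48.6 and 38.1 CPM in DMSO clones and was not called (0.21 ± 0.12, adjusted p = 0.16), though it was without the DMSO library of clone b (0.43, adjusted p = 0.029). The PP1 with 4OHT libraries were the highest of all 17 and the MEKi with 4OHT libraries the lowest. Slc7a7 shares 232 exonic bases with Oxa1l on the opposite strand, whose own log2 fold changes were -0.08 with 4OHT, 0.19 under MEKi (adjusted p = 0.19) and 0.26 under PP1 (adjusted p = 0.032).

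Slc39a14, encoding ZIP14, an importer of zinc, iron and manganese, was higher with 4OHT alone and under PP1 and lower under MEKi. It had 168, 194 and 197 CPM in 4OHT clones against 86.3 and 81.4 CPM in DMSO clones, 191, 202 and 191 CPM in PP1 with 4OHT clones against 43.4, 62.1 and 58.5 CPM in PP1 clones, and 14.1, 19.9 and 14.8 CPM in MEKi with 4OHT clones against 38.5, 51.5 and 44.7 CPM in MEKi clones. The log2 fold changes were 1.15 ± 0.13, 1.80 ± 0.12 and -1.46 ± 0.14 (adjusted p = 2.1e-07, 8.2e-10 and 2.4e-07). The arginine carrier gene Slc7a3 was at -1.45 ± 0.18 under MEKi and at 0.50 ± 0.16 under PP1 (adjusted p = 2.4e-05 and 0.022), the second being lost when any of 4 of the 6 libraries was left out (PP1 clones b and c, adjusted p = 0.1 each, and PP1 with 4OHT clones a and b, 0.067 and 0.18). Slc9b2, a sodium and proton exchanger gene, had 1.61, 1.9 and 1.08 CPM in MEKi with 4OHT clones, against 5.29, 5.23 and 3.78 CPM in MEKi clones (-1.61 ± 0.27, adjusted p = 0.0002), and was higher under PP1 (0.64, adjusted p = 0.031).

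Slc29a1, the nucleoside carrier gene, had 131, 123 and 145 CPM in PP1 with 4OHT clones, against 81.3, 55 and 70.9 CPM in PP1 clones (0.96 ± 0.17, adjusted p = 0.00057). Under MEKi it was called lower (-0.62 ± 0.18, adjusted p = 0.029), a call lost when any library of that pair of groups but the MEKi library of clone a was left out (adjusted p = 0.054 to 0.11). Slc27a2, for long-chain fatty acids, was lower with 4OHT alone (-0.88, adjusted p = 0.0007) and under MEKi (-0.95, adjusted p = 0.0013) and higher under PP1 (0.55, adjusted p = 0.018). Slc45a4, of a subfamily of putative sugar carriers, ran the other way from Slc39a14. It had 218, 219 and 253 CPM in MEKi with 4OHT clones against 139.6, 149.8 and 167 CPM in MEKi clones, while it had 61.7, 64.9 and 57.8 CPM in 4OHT clones against 124 and 149 CPM in DMSO clones (0.59 ± 0.09 and -1.15 ± 0.10).

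**Figure D4:**
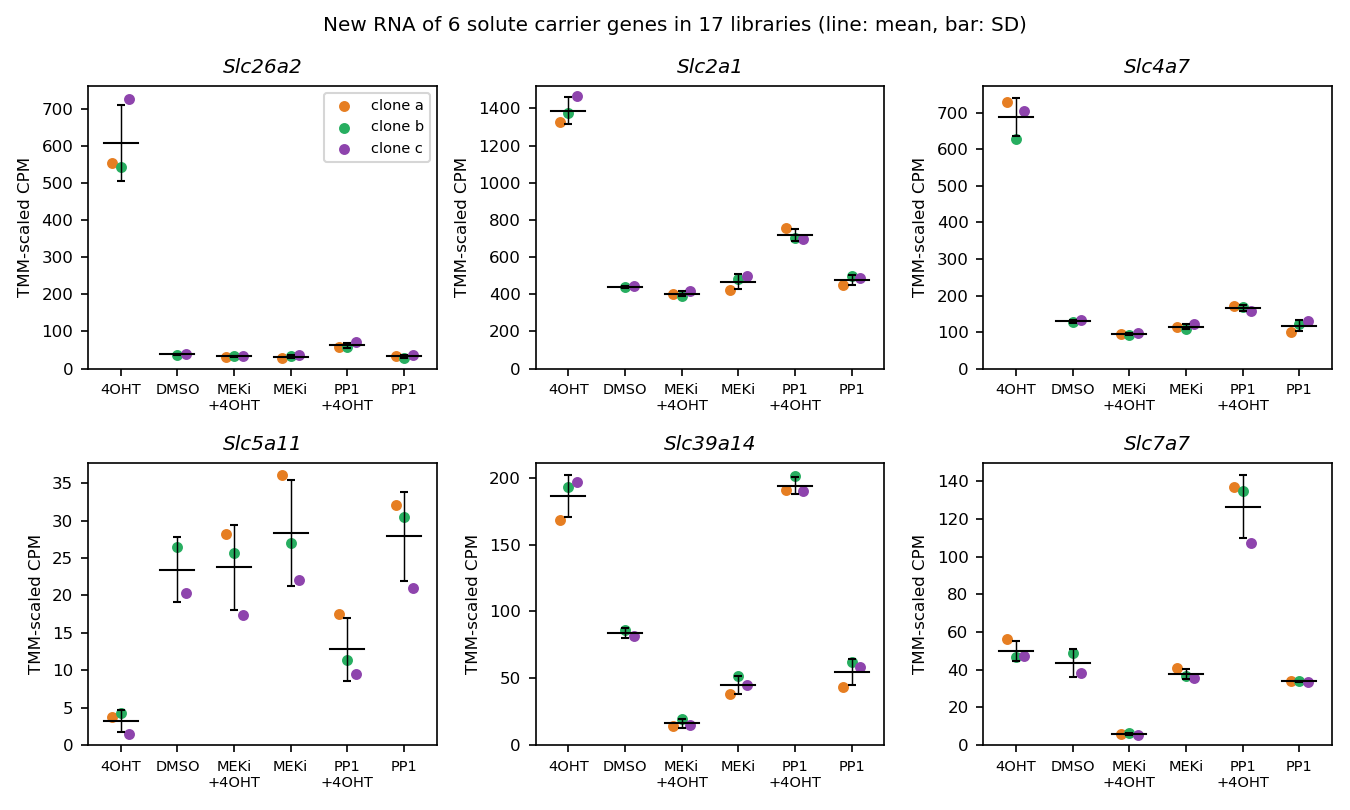
TMM-scaled CPM (vertical axes, starting at 0) of 6 members in the 17 libraries by group (horizontal axes); points are clones, lines group means and bars the SD (n = 3, and n = 2 for DMSO). Slc26a2, Slc2a1 and Slc4a7 are highest with 4OHT alone, Slc5a11 is lowest there, and Slc7a7 is highest in PP1 with 4OHT and lowest in MEKi with 4OHT.

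Interactions compared the 4OHT effect with an inhibitor to that without. For MEKi, 48 members were higher and 46 lower, where 21.1% and 19.3% of all genes were, and library totals gave 77 higher and 19 lower at a median of all genes of 0.48. For PP1, 45 were higher and 23 lower, where 15.1% and 11.4% of all genes were, and library totals gave 65 higher and 9 lower at a median of 0.45. The calls of smallest adjusted p for MEKi were Slc26a2, Slc4a7, Slc2a1 and Slc7a7, lower, and Slc45a4, Slc37a2, Slc35g1 and Slc44a2, higher; for PP1 they were Slc26a2, Slc4a7, Slc2a1 and Slc4a11, lower, and Slc7a7, Slc44a2, Slc19a2 and Slc45a4, higher. Slc44a2, which encodes a choline carrier-like protein, had 12.1, 10.2 and 13.6 CPM in 4OHT clones, against 22.6 and 24.6 CPM in DMSO clones (-0.97 ± 0.14, adjusted p = 3.1e-06). Under PP1 the thiamine importer gene Slc19a2 had 129, 134 and 129 CPM in PP1 with 4OHT clones, against 96.7, 102 and 91.6 CPM in PP1 clones (0.43 ± 0.09, adjusted p = 0.00069). These interactions use the same 4OHT and DMSO libraries as the uninhibited comparison.

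Almost no carrier was called between an inhibitor alone and DMSO, and with 2 DMSO libraries smaller changes may have been missed. Slc39a14 was the only member called in MEKi against DMSO, lower at 38.5, 51.5 and 44.7 CPM in MEKi clones, against 86.3 and 81.4 CPM in DMSO clones (-0.91 ± 0.13, adjusted p = 0.00088). No member was called higher, while 25 had an unadjusted p under 0.05 in edgeR (9 of them higher). Over all genes 0.0805% were higher and 0.449% lower. Between PP1 and DMSO no member was called by edgeR, while 19 had an unadjusted p under 0.05 (2 of them higher) and DESeq2 called 1. Of all genes, 0.0805% were higher and 0.161% lower. The member DESeq2 called was Slc39a14 (-0.58, adjusted p = 0.011), which edgeR put at -0.59 ± 0.13 (adjusted p = 0.077) and called with clone as a replicate block (-0.53, adjusted p = 0.01).

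Other transport genes were counted too, with the filter for all genes and without the count rule of the members. Of 44 tested ABC transporter genes, which use ATP to pump their substrates, 9 were higher and 16 lower in 4OHT than in DMSO (median -0.19). Of 11 organic anion carriers of the Slco family, which the symbol rule does not take in, 2 were higher and 5 lower (median -0.59). Among 16 tested genes of carrier partners and chaperones, 6 were higher and 4 lower (median 0.15). Over all genes the median was -0.03, with 25.7% called higher and 26.3% lower. Genes of few counts could enter these lists but not the members. The ABC gene Abcg1, for example, had 8, 9 and 12 counts in the 4OHT libraries (mean 1.25 CPM, against 7.09 CPM in DMSO). The lists were not recounted under the members' rule, so their splits cannot be set directly against that of the members.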

How the data were processed

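The deposited table holds whole-number counts per gene symbol for 17 libraries of captured new RNA. Per the submitters' processing notes, the authors used STAR and featureCounts with the mouse build mm10; for their versions, annotation, strand setting, feature type and multiple alignments nothing is stated in the sources used here. Its counts are as deposited, not normalized.

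Counts were fitted with edgeR 4.0.16 (R 4.3.3; limma 3.58.1) by its quasi-likelihood test, with TMM scaling, the default filter on low counts, all 17 libraries and 1 term per group, which left 14907 genes and 11 residual degrees of freedom. P-values were Benjamini-Hochberg adjusted over all genes, and standard errors are the log2 fold change divided by the root of F. The scripts were tested on simulated data. Alternatives were DESeq2 1.42.0, other scalings, no filter, clone as a replicate block, and libraries left out.

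The members and lists were chosen with earlier results of these data known. Genes named are the 12 largest rises and 12 largest falls with 4OHT that went the same way in both shared clones, the 4 and 4 of each other comparison, the highest and lowest of each larger subfamily, and a set of well-known carriers. Genes named beyond these to account for a group were chosen after their values were seen, and 2 genes that the rule names are not reported here.

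Clone letters in the labels name the same clones in every group. Deviations from group means correlated at a mean r of 0.086 between libraries of the same clone (40 pairs) and -0.043 between those of different clones (80 pairs). Genes were placed with GENCODE M21 by symbol, and promoters came from RefSeq (GRCm38.p6). Totals of 5239690 to 11093390 counts a library limit genes of few counts most.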

Additional observations from a re-analysis of the deposited data

Results flagged for a closer look

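For these members the response to 4OHT differed with an inhibitor from that without it, by edgeR's interaction term with Benjamini-Hochberg adjustment, and each value is the log2 fold change by 4OHT with the inhibitor minus that without it. The differences were -3.95 under MEKi and -3.05 under PP1 for Slc26a2, -2.70 and -1.92 for Slc4a7, and -1.87 and -1.07 for Slc2a1. For Slc4a11 the difference was -2.35 under PP1. Slc7a7 differed by -2.90 under MEKi and by 1.70 under PP1, opposite in sign. Other positive differences were 1.74 under MEKi and 0.78 under PP1 for Slc45a4, and 1.38 and 1.12 for Slc44a2. Those of Slc37a2 and Slc35g1 were 2.33 and 1.40 under MEKi, and that of Slc19a2 was 0.73 under PP1. These genes were picked among calls of positive difference, so their sign follows from the choice. All were lower with 4OHT alone, and since that response is subtracted, a fall there by itself tends to make the difference positive. The 2 interactions share the 4OHT and DMSO libraries. With at most 3 libraries a group, no library was tested for standing apart.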

How the results depend on the processing

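Of the values recomputed for the single genes reported, 1745 kept their side of the threshold, 66 lost and 15 gained a call. No called value changed direction. The 1745 include any change of sign between values not called, and values without an adjusted p. With library totals, members called higher numbered 28 in 4OHT against DMSO and 77 in the MEKi interaction, and members called lower 7 in each 4OHT comparison under an inhibitor, 19 in the MEKi interaction and 9 in the PP1 interaction. A 2-fold minimum left 20 higher and 18 lower with 4OHT, 0 and 5 under MEKi, 4 and 2 under PP1, 23 and 26 in the MEKi interaction, 15 and 12 in the PP1 interaction, and 0 in MEKi against DMSO. Without the 2 libraries of highest background, 10 were higher and 12 lower with 4OHT under MEKi, and 1 was lower in PP1 against DMSO, as with DESeq2 and with clone as a replicate block (1 each, Slc39a14). That block otherwise gained the call of Slc1a5 and changed no other named call. Counting every tested symbol gave 32 lower under PP1. Without the 3 libraries of largest high-count share, chosen after seeing the data, 3 were lower in MEKi against DMSO (Slc39a14, Slc38a2 and Slc7a3). Leaving out 1 library at a time, calls with 4OHT under MEKi ranged from 9 to 18 higher and 15 to 22 lower. The counts were 10 and 15 without the MEKi library of clone a, 9 higher without MEKi with 4OHT of clone c and 16 lower without that of clone a. The PP1 interaction ranged from 28 to 42 higher, the lowest without DMSO of clone c. The cause was not tested. Depth limits genes near 10 counts, such as Slc22a15.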
